A study of Homo sapiens with 14 samples.

Results

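LNCaP cells kept in enzalutamide were compared with parental LNCaP cells by RNA sequencing. All genes whose level, averaged over both libraries, was 5 CPM or more (CPM, reads of the gene per 1000000 counted reads) were described, which gave 11004 genes out of the 44591 in the table, of which 27475 had at least 1 count in either library. LNCaP is a human prostate cancer cell line that depends on the androgen receptor and is not of the neuroendocrine type, and enzalutamide is a drug that binds the androgen receptor and blocks its activity. The parental cells, labelled as wild type, and the treated cells (LNCaP-ENZ) were grown in RPMI-1640 medium with fetal bovine serum, and LNCaP-ENZ cells, labelled as enzalutamide resistant, were kept in 20 µM enzalutamide, for 30 days according to the text of the series. They are a subline kept under the drug, so effects of the drug, of selection and of time in culture cannot be told apart. The labels give 1 library per arm, although the study's methods mention replicate samples of the cells. No difference therefore has a replicate check, and no p-value is given. The comparison asks what changed in the transcriptome of an androgen-dependent line under long exposure to an androgen receptor blocker.

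The androgen receptor is a transcription factor that enters the nucleus when it binds testosterone or dihydrotestosterone and switches on genes of prostate secretion, lipid synthesis and growth. When it is blocked, its targets lose expression while genes that it represses may gain it, and the cells may come to rely on other receptors, growth factor pathways or lineage programmes. Several gene groups are known from such settings, among them the kallikreins and TMPRSS2 as androgen targets, the glucocorticoid receptor NR3C1, interferon and antigen presentation genes, cell cycle genes and neuroendocrine genes.

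The parental library held 20468001 counts and the LNCaP-ENZ library 17945722, with a median of 604 and 461 counts per described gene. Counts were divided by the library total to give CPM, and each gene was described by the log2 ratio of CPM + 0.1 in LNCaP-ENZ over parental cells. The 95% interval after a log2 ratio is an exact Clopper-Pearson interval for the share of a gene's reads that came from either library, which covers counting error only. Its median half-width was 0.18. A gene was called higher or lower when its level differed at least 2-fold. Where a pair of values is given, the parental one comes first and the LNCaP-ENZ one second. The most abundant transcript was RN7SK, a small nuclear RNA that has no poly-A tail, with 12.3% and 13.0% of the counts, although the labels describe enrichment of poly-A RNA. Of the 12 LNCaP markers that were checked, 11 reached 5 CPM. The exception was PCA3. KRT8 and KRT18, the keratins of luminal cells, had log2 ratios of -0.08 and 0.00, and HOXB13, a prostate homeobox factor, 0.01. Of 20 leukocyte markers, 2 (LCP1 and CD68) reached this level, 9 had 3 counts or fewer in both libraries, and CD163, CD79A, MS4A1 and TYROBP had 0 counts in both. Of 17 fibroblast and endothelial markers, 2 (COL1A1 and VWF) reached it and 8 had 0 counts in both libraries.

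Many more genes were lower than higher in LNCaP-ENZ cells. A level at least 2-fold higher was found for 98 genes (0.891%) and a level at least 2-fold lower for 776 genes (7.05%), so that 874 genes (7.94%) passed the limit in either direction. For all 874 the counting interval excluded a log2 ratio of 0. The limits of 5 CPM and 2-fold make this nearly certain, so it adds no support to the calls. At 4-fold the counts were 22 higher and 52 lower, and at 8-fold 9 higher and 10 lower, so the excess of lower genes lay among moderate differences. The median log2 ratio of all described genes was -0.13, with 4267 genes above and 6737 below 0, and the central 90% ran from -1.12 to 0.57. Medians of gene lists are therefore given relative to this median. Scaling moved the split. With edgeR's TMM factors, which bring the median of the genes to 0.02, 156 genes were higher and 500 lower, and lower genes made up 76.2% of the calls against 88.8% before. With the median set to 0 there were 147 higher and 537 lower genes (78.5% lower).

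**Figure D1:**
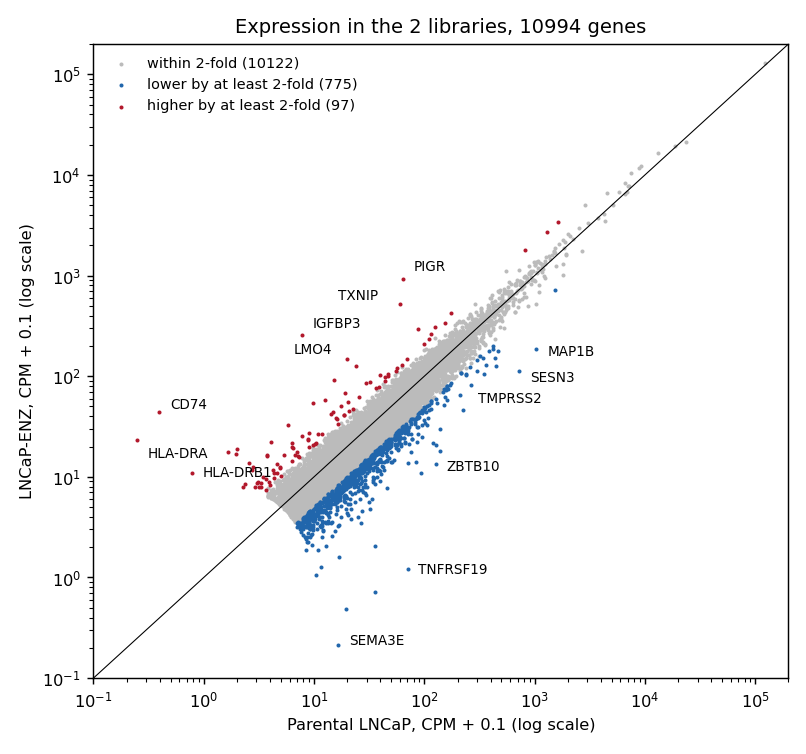
Level of each described gene in parental LNCaP (x axis) and LNCaP-ENZ cells (y axis), as CPM + 0.1 on log scales, for 10994 genes (the 10 with a position on chromosome Y are not drawn), with red points at least 2-fold higher, blue points at least 2-fold lower and a line of equal levels. Most points follow the line, with CD74, HLA-DRA and IGFBP3 farthest above it and SEMA3E and TNFRSF19 farthest below.

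Lower genes were concentrated among AT-rich and long transcripts. GC content of the longest transcript was known for 10808 of the genes (98.2%). In the quintile with the lowest GC content (29.2% to 40.6%), 441 of 2162 genes (20.4%) were lower by at least 2-fold and 11 (0.509%) higher, with a median log2 ratio of -0.62. In the quintile with the highest GC content (58.0% to 74.7%), 51 genes (2.36%) were lower and 20 (0.925%) higher, with a median of 0.03. The share of lower genes was 2.14% in the shortest quintile of gene models and 14.1% in the longest. Across genes, which are not independent replicates, the Spearman rho of the log2 ratio was 0.44 with GC content and -0.31 with length. Differences in RNA quality or library preparation and differences between the cells cannot be told apart with 1 library per arm, and the part of GC content and length in the results below was not tested. As an alternative added after seeing the data, each log2 ratio was taken relative to genes in the same quintile of length and of GC content. Under this adjustment 414 genes were lower and 95 higher, and 333 of the 765 lower and 72 of the 96 higher genes with a known GC content were called again.

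**Figure D2:**
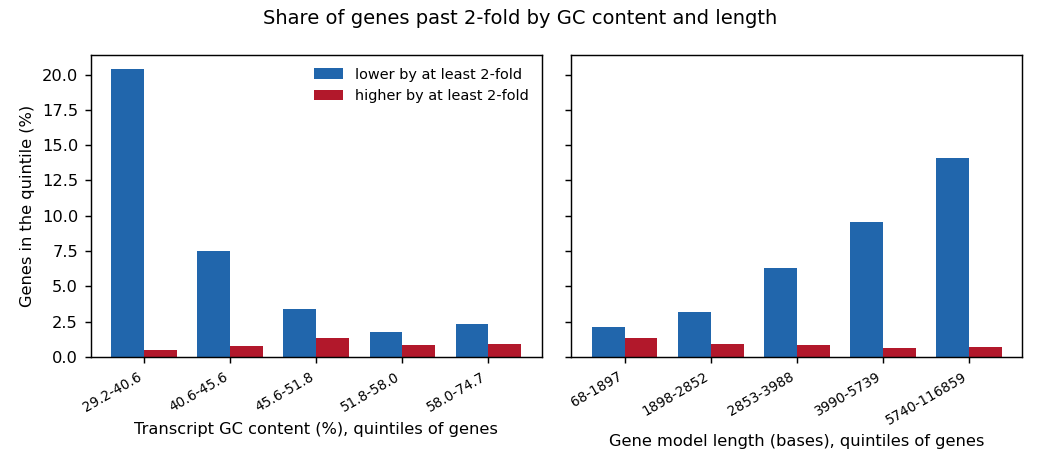
Share of genes in percent (y axis) that were at least 2-fold lower (blue) or higher (red) in LNCaP-ENZ cells, by quintiles of transcript GC content (left) and of gene model length (right). Blue bars reach 20.4% in the quintile with the lowest GC content and 14.1% in the longest quintile, and red bars stay at 1.36% or less.

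The largest increases were found in genes of antigen presentation, secretion and growth factor binding. CD74, the invariant chain that escorts HLA class II molecules, lies on chromosome 5 from 149781200 to 149792499 (GRCh37). It was covered by 6 reads in the parental and 786 in the LNCaP-ENZ library, which is 0.293 and 43.8 CPM and a log2 ratio of 6.80 (6.09 to 8.67). IGFBP3, a secreted protein that binds insulin-like growth factors, lies on chromosome 7 from 45951844 to 45960871. It had 7.67 and 256 CPM, a 33.4-fold difference (log2 ratio 5.04, 4.83 to 5.30). PIGR, the receptor that carries polymeric immunoglobulins across epithelia, lies on chromosome 1 from 207101867 to 207119811 and had 63.9 and 933 CPM, a 14.6-fold difference (log2 ratio 3.87, 3.79 to 3.95). TMPRSS2, the androgen-induced serine protease on chromosome 21 from 42836478 to 42880085, was lower, with 264 and 82.0 CPM (log2 ratio -1.68). Length and GC adjustment left these 4 genes on the same side of 0 and past the 2-fold limit.

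The other protein-coding genes with the largest increases belonged to several classes. TXNIP, which binds thioredoxin and limits glucose uptake, had 59.6 and 523 CPM (log2 ratio 3.13, 3.05 to 3.22). MBNL2, a splicing regulator, went from 1.56 to 17.4 CPM, and DAB1, the adaptor of Reelin signalling, from 1.91 to 18.7 CPM. PLA2G2A, a secreted phospholipase, had 1.86 and 16.9 CPM. LMO4, a LIM-only cofactor of transcription, had 19.9 and 146 CPM (log2 ratio 2.87). DUSP5, a phosphatase that switches off ERK in the nucleus, had 15.1 and 91.1 CPM (log2 ratio 2.58). TLL1, a protease of the extracellular matrix, had 9.62 and 54.3 CPM, and TNC, a matrix glycoprotein of remodelling tissue, 5.72 and 32.3 CPM. HLA-DRA, HLA-DRB1, APOL6 and LGALS3BP complete the 15 largest and are described with the immune genes.

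The largest decreases included genes of axon guidance, glycosylation and transcription. SEMA3E, a secreted guidance protein on chromosome 7 from 82993222 to 83278479, dropped from 339 reads in the parental library to 2 in the other (log2 ratio -6.30, -10.27 to -5.35). TNFRSF19, a receptor of the TNF family on chromosome 13 from 24144509 to 24250244, had 1442 and 20 counts (log2 ratio -5.86, -6.70 to -5.35). ST6GALNAC1, the sialyltransferase that makes the sialyl-Tn antigen, lies on chromosome 17 from 74620838 to 74639920 and had 729 and 11 counts (log2 ratio -5.65). SEMA3E was below the floor of 3 counts in LNCaP-ENZ cells, which corresponds to 0.167 CPM, so its ratio rests on few reads. ZNF385B, a zinc finger protein, had 35.8 and 1.95 CPM, and VWF, the clotting factor carrier of endothelial cells, 345 and 27 counts. The 17 fibroblast and endothelial markers, VWF included, summed to 44.3 and 22.6 CPM, and their part in the VWF value was not tested. CACNA1H, a T-type calcium channel, had 26.7 and 3.34 CPM, and MBOAT2, an acyltransferase of lysophospholipids, 139 and 17.9 CPM. The kinase PRKCH had 25.2 and 3.90 CPM and the ubiquitin ligase TRIM2 12.8 and 1.95 CPM, while FAM49A and SPG20 had log2 ratios of -3.32 and -2.74.

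Among genes that averaged 100 CPM or more, where counting error is small, the 2 largest decreases were SESN3 and MAP1B. SESN3, a sestrin that restrains mTORC1, had 721 and 112 CPM (log2 ratio -2.68, -2.75 to -2.61). MAP1B, a microtubule-binding protein of neurites, had 1036 and 186 CPM (log2 ratio -2.48, -2.53 to -2.43). HSP90B1, the HSP90 chaperone of the endoplasmic reticulum, followed with 449.8 and 126 CPM, after ENDOD1 with 223 and 45.9 CPM. UAP1, which makes UDP-N-acetylglucosamine, had 151 and 51.4 CPM, and MCCC2, a subunit of the leucine-degrading carboxylase, 360.3 and 129 CPM. NAP1L1, a histone chaperone, had 439.9 and 152 CPM but was within 2-fold after the length and GC adjustment (log2 ratio -0.87). The abundant genes that were higher, beside PIGR, IGFBP3 and TXNIP, were led by BAMBI, a decoy receptor for TGF-beta ligands, with 87.0 and 297 CPM (log2 ratio 1.77). CAD, the enzyme that starts pyrimidine synthesis, had 124 and 306 CPM, COLCA1 174 and 427 CPM, LDOC1 115 and 262 CPM and NOL6, a nucleolar protein, 109.9 and 237 CPM.

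Cofactors of the androgen receptor differed by small amounts for the most part. FOXA1, the pioneer factor that opens sites for the receptor, had 471 and 405 CPM, and GATA2, another partner, 239 and 259 CPM. The coactivator NCOA1 was lower, with 85.0 and 39.2 CPM (log2 ratio -1.12), while NCOA2 had 47.7 and 45.8 CPM. The corepressor NCOR1 had a log2 ratio of -0.91. In the list of 18 steroid receptors and cofactors, 2 genes (11.1%) were higher and 2 (11.1%) lower, against 0.891% and 7.05% of all genes. After the length and GC adjustment 2 were higher and 1 lower, and NCOA1 was within 2-fold (log2 ratio -0.77).

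Of 40 androgen-induced genes, 18 (45.0%) were at least 2-fold lower (15 after the adjustment) and 1 was higher, against 7.05% and 0.891% of all genes. The median of the list lay 0.69 below that of all genes on the log2 scale, and the adjusted difference was -0.60, with 5 of 40 genes above the median of all genes. The differences were uneven. ZBTB16, a transcriptional repressor, had 395 and 7 counts (log2 ratio -5.31), and ZBTB10, of the same family, 126 and 13.3 CPM (log2 ratio -3.24). SLC45A3, also known as prostein, had 45.6 and 7.58 CPM (log2 ratio -2.57). The transporter ABCC4 had 240.0 and 104 CPM, the lipid enzyme ACSL3 59.0 and 23.7 CPM, and the elongation factor ELL2 27.7 and 6.97 CPM. FKBP5, a chaperone often read as a gauge of receptor activity, was within the limit with 61.0 and 36.1 CPM (log2 ratio -0.76). STEAP1 and STEAP2 also stayed within 2-fold, with log2 ratios of -0.20 and -0.20. CDC6, a licensing factor of replication that is in this list and in that of G1/S genes, was higher, with 55.4 and 111 CPM. Among androgen-induced genes below the level of description, MAF had 188 and 9 counts and the ion channel TRPM8 102 and 9 counts.

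**Figure D3:**
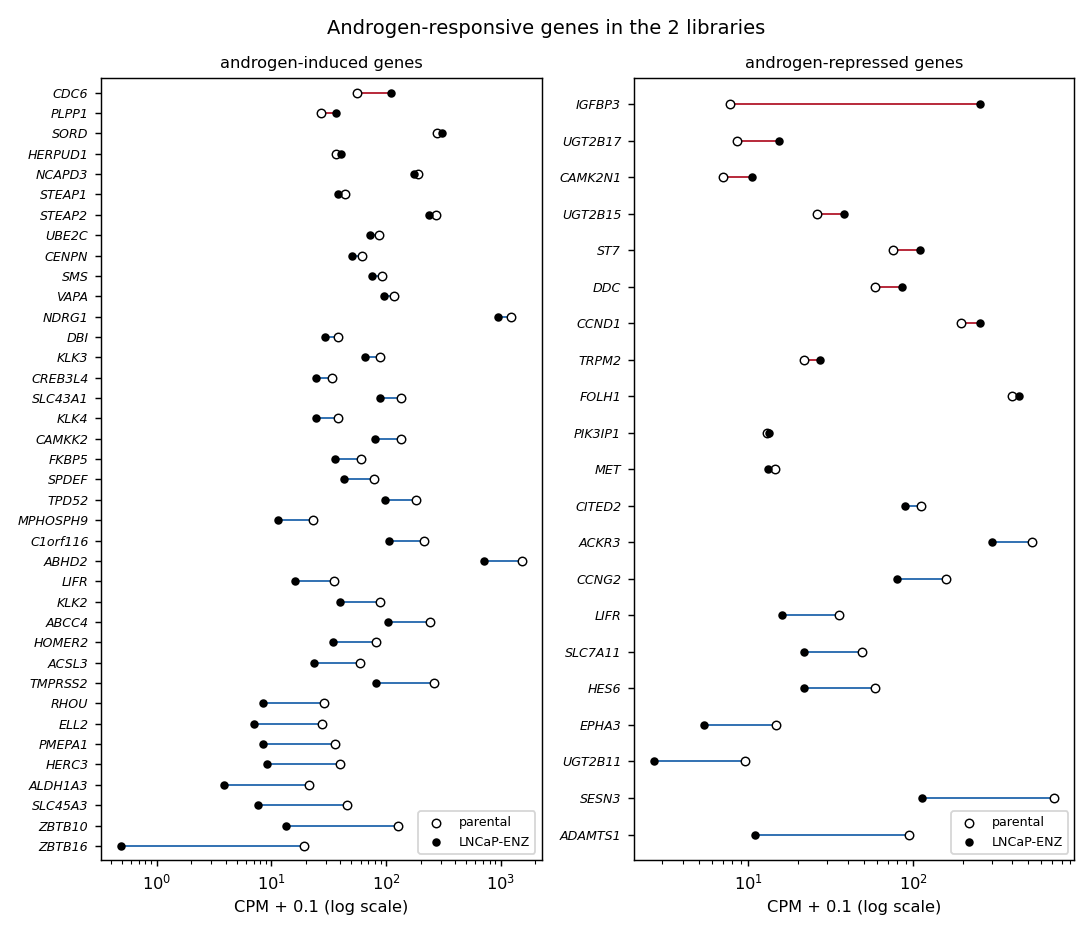
Level of androgen-induced (left) and androgen-repressed genes (right) in parental cells (open circles) and LNCaP-ENZ cells (filled circles), as CPM + 0.1 on a log scale, with blue lines where LNCaP-ENZ was lower, red lines where it was higher and 1 library per arm. Most induced genes drawn were lower in LNCaP-ENZ cells, ZBTB16 the most, and the repressed genes went both ways, from ADAMTS1 to IGFBP3.

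The neighbouring kallikrein genes KLK2 and KLK3 differed by unequal amounts. KLK2, kallikrein 2, had 89.4 and 39.5 CPM (log2 ratio -1.18, -1.31 to -1.05). KLK3, which codes for prostate-specific antigen, had 88.8 and 66.1 CPM, a log2 ratio of -0.43 (-0.53 to -0.32). The 2 genes had intervals that did not overlap, but these cover counting error only, in 1 library per arm. The promoters of KLK2 and KLK3 are shown because the same sequence lies in both, a match to the androgen response element. It was searched as GAACA, any 4 bases, GT, any base and CT, which 0.216% of 35116 promoters of 250 bases hold on either strand. The windows below are bases 200 to 101 before the RefSeq start (GRCh38.p14, plus strand, chr19:50873239-50873338 for KLK2 and chr19:50854715-50854814 for KLK3), with the match in capitals. It begins 175 bases before the start in KLK2 and 169 bases before it in KLK3.
KLK2: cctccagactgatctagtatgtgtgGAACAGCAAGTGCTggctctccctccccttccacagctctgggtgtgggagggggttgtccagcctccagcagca
KLK3: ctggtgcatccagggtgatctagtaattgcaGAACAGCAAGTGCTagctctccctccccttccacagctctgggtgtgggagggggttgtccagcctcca
The matched letters were the same in both genes, whose levels differed by unequal amounts. Of the 40 androgen-induced genes, 29 had a promoter in the table and only KLK2 and KLK3 held the motif.

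Androgen-repressed genes showed no common direction. Of 22 such genes, 1 was higher and 7 (31.8%, against 7.05% of all genes) were lower by at least 2-fold, and the median lay 0.07 above that of all genes. IGFBP3 was the gene that was higher. ADAMTS1, a matrix metalloprotease, was lower, with 93.9 and 10.9 CPM (log2 ratio -3.10), as were SESN3, UGT2B11 and the ephrin receptor EPHA3 (14.5 and 5.29 CPM). UGT2B15 and UGT2B17, the enzymes that inactivate androgens by adding glucuronic acid, had 26.0 and 38.1 CPM and 8.40 and 15.2 CPM (log2 ratios 0.55 and 0.84). These genes and UGT2B11 are close copies, so how reads were split between them is uncertain. FOLH1, which codes for prostate-specific membrane antigen, had 399 and 439.9 CPM (log2 ratio 0.14).

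Other nuclear receptors moved apart. NR3C1, the glucocorticoid receptor, which shares DNA motifs with the androgen receptor, was covered by 44 parental and 142 LNCaP-ENZ reads, which is 2.15 and 7.91 CPM and a log2 ratio of 1.83 (1.38 to 2.40). NR2F1, an orphan receptor of neural development, had 2.64 and 11.5 CPM (log2 ratio 2.09). NR3C2, the mineralocorticoid receptor, was lower, with 28.7 and 7.86 CPM (log2 ratio -1.86, -2.15 to -1.60). The progesterone receptor gene PGR, below the level of description, had 38 and 9 counts, and ESR1 had 0 counts in both libraries. Of 11 genes of steroid and glucuronide metabolism, 2 (18.2%, against 7.05% of all genes) were lower, UGT2B11 and HSD17B11, and 0 were higher. After the adjustment 1 was lower. HSD3B1, an enzyme of androgen synthesis, had 5 and 23 counts, too few for description among these genes.

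Luminal, neuroendocrine and developmental genes did not move as blocks. Of 21 luminal prostate genes, with a median 0.23 below that of all genes, 5 were lower (23.8%, against 7.05% of all genes) and 1 higher. RAB3B, a small GTPase of secretory vesicles, was the lowest of them, with 129 and 20.4 CPM (log2 ratio -2.65). ACPP, which codes for prostatic acid phosphatase, was higher, with 4.15 and 11.7 CPM (log2 ratio 1.47). Only 7 of the neuroendocrine marker genes reached a mean CPM of 5. Their median lay 0.26 below that of all genes, before and after the adjustment, and 2 of the 7 lay above it. These 2 were DDC and DLL3, with log2 ratios of 0.53 and 0.42, and HES6 was lower by at least 2-fold (58.7 and 21.6 CPM). PAX6 had 11 and 4 counts and STAT5A 6 and 1 counts, and for both the counting interval included 0, while MET, a receptor tyrosine kinase, had 14.4 and 13.1 CPM (log2 ratio -0.14, -0.39 to 0.11). Among 44 developmental transcription factors, 1 was higher (NR2F1) and 4 (9.09%, near the 7.05% of all genes) were lower, or 2 lower after the adjustment. The 4 were ZNF385B, NFIB (67.4 and 27.9 CPM), EHF (421 and 188 CPM) and MEIS1 (8.26 and 3.73 CPM). SOX11, a factor of neural progenitors that lay below the level of description, had 124 and 11 counts. All 7 described HOX genes lay above the median of all genes and 0 passed 2-fold, with a median 0.79 above it (0.58 after adjustment). HOXC13 (17.4 and 33.9 CPM) and HOXA10 (14.9 and 27.7 CPM) had the largest log2 ratios among those in the list of developmental factors.

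Several HLA class II genes and CD74 had almost no counts in parental cells and were measurable in LNCaP-ENZ cells. Of the 13 described genes of this list, 3 (23.1%) were higher and 1 (7.69%) was lower, against 0.891% and 7.05% of all genes. The adjusted counts were 3 and 0. CD74, HLA-DRA and HLA-DRB1, the 3 higher genes, reached a mean of 5 CPM only through the LNCaP-ENZ library. Their count therefore follows in part from the filter. The median lay 0.12 above that of all genes, or 0.04 below it after the adjustment. HLA-DRA, the invariant alpha chain of HLA-DR, lies on chromosome 6 from 32407619 to 32412823 and was covered by 3 parental and 414 LNCaP-ENZ reads (log2 ratio 6.55, 5.74 to 9.58). HLA-DRB1, its beta chain, which shares reads with other DRB genes, had 14 and 192 counts (log2 ratio 3.78, 3.19 to 4.87). Below the level of description, HLA-DPA1 had 6 and 44 counts, HLA-DPB1 32 and 99 counts and HLA-DQA1 1 and 41 counts, whereas HLA-DQB1 had 60 and 58 counts. CIITA, the coactivator that class II genes need, had 15 and 25 counts (log2 ratio 0.84, -0.05 to 1.96), an interval that includes 0. HLA-DMA and HLA-DMB, which load peptides onto class II molecules, had 19.9 and 16.4 CPM and 9.97 and 8.02 CPM. The DNA-binding factors RFX5 (113 and 82.1 CPM), RFXANK (27.4 and 27.2 CPM) and NFYA (27.1 and 28.1 CPM) stayed within 2-fold, and NFYB was lower (7.77 and 3.79 CPM). The pan-leukocyte marker PTPRC had 23 and 28 counts, and the B cell markers CD79A and MS4A1 had 0 counts in both libraries. The 20 leukocyte markers summed to 96.0 CPM in parental and 92.8 CPM in LNCaP-ENZ cells. Most of this sum came from LCP1 (62.6 and 56.1 CPM) and CD68 (24.8 and 25.5 CPM), so it does not show how the other markers moved. Whether leukocytes took part in the class II values was not tested. In bulk RNA, fewer cells with a transcript and less transcript per cell cannot be told apart.

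Class II promoters carry an X box and a Y box, which RFX and NF-Y bind. The HLA-DRB1 promoter is shown because both were found in it. The X box was searched as AG, any base, AAC, any base, G, any base and TG, and the Y box as GATTGG, on both strands, and 0.937% and 14.1% of all promoters of 250 bases held them. The window runs from 100 to 31 bases before the RefSeq start (GRCh38.p14, minus strand, chr6:32589879-32589948), with the X box in capitals at 79 and the Y box at 47 bases before the start.
HLA-DRB1: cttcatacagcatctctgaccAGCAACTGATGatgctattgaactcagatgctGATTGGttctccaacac
Of the 13 genes in the class II list, 10 had a promoter in the table, and HLA-DMB was the other with an X box match. HLA-DRA was not among them.

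Among HLA class I presentation genes, B2M and HLA-B passed 2-fold. Of 16 class I presentation genes, 2 (12.5%, against 0.891% of all genes) were at least 2-fold higher and 0 were lower (1 after the adjustment). The median lay 0.67 above that of all genes (0.49 after adjustment), and 12 of 16 genes lay above the median of all genes. The summed level of the list was 3695 and 3467 CPM. B2M, the light chain of all class I molecules, lies on chromosome 15 from 45003685 to 45010357 and had 153 and 336 CPM (log2 ratio 1.13, 1.07 to 1.20). The heavy chain HLA-B had 43.8 and 97.0 CPM (log2 ratio 1.15) and HLA-C 101 and 156 CPM (0.63). Reads of these genes are similar in sequence, and their split is uncertain. The nonclassical HLA-E had 32.9 and 18.3 CPM, a log2 ratio of -0.84. NLRC5, the class I coactivator, had 8.01 and 13.0 CPM (log2 ratio 0.69), and the peptide transporters TAP1 and TAP2 had log2 ratios of 0.56 and 0.01. The general chaperones CALR, CANX and PDIA3, which also belong to the list, had log2 ratios of -0.28, -0.63 and -0.52. HCP5, a noncoding RNA of the HLA region, was higher, with 6.84 and 17.4 CPM (log2 ratio 1.34).

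Interferon-stimulated genes split. Of 30 described, 3 (10.0%) were higher and 3 (10.0%) lower, against 0.891% and 7.05% of all genes. After the adjustment 4 were higher and 2 lower. The median lay 0.11 above that of all genes. LGALS3BP, a secreted glycoprotein that binds galectins, had 24.0 and 126 CPM (log2 ratio 2.39, 2.25 to 2.53). APOL6, of the apolipoprotein L family, had 2.49 and 13.8 CPM (log2 ratio 2.42), and BST2, which tethers budding viruses, 6.25 and 19.7 CPM (log2 ratio 1.64, 1.36 to 1.96). IRF1, OAS3 and IFI35 came next, with log2 ratios of 0.98, 0.95 and 0.84. IFITM1 and IFITM2, membrane proteins that block viral entry, were lower, with 33.4 and 13.7 CPM and 12.2 and 5.91 CPM, and so was IFNAR1, a chain of the type I interferon receptor (62.3 and 30.9 CPM). IFNAR1 was within 2-fold after the adjustment (log2 ratio -0.66). Reads of IFITM1, IFITM2 and IFITM3 can be shared, since these genes are close copies. STAT2 and ISG15, central to the interferon response, had log2 ratios of 0.03 and -0.12. Below the level of description, OAS1 had 36 and 107 counts, APOL1 18 and 100 counts and GBP2 9 and 47 counts, while IFIT2 had 32 and 4 counts and HERC5 98 and 17 counts.

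The promoters of 4 genes that were higher are shown with the interferon-stimulated response element, searched on both strands as GAAA, any 2 bases and GAAA. It was held by 3.02% of all promoters of 250 bases, by 11 of the 22 interferon-stimulated genes and 6 of the 12 class I presentation genes that had a promoter in the table. The windows run from 160 to 31 bases before the RefSeq start (GRCh38.p14), with matches in capitals. They are BST2 (minus strand, chr19:17405661-17405790), LGALS3BP (minus strand, chr17:78979954-78980083), B2M (plus strand, chr15:44711357-44711486) and CFB (plus strand, chr6:31945935-31946064), a complement gene described below.
BST2: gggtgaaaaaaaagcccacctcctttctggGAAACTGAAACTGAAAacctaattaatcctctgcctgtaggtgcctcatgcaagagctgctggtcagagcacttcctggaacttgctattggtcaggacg
LGALS3BP: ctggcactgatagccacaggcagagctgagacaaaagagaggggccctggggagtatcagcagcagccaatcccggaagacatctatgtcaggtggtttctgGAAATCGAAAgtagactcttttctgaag
B2M: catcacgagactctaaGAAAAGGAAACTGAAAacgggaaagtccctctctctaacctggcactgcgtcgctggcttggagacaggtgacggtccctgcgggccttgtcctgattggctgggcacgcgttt
CFB: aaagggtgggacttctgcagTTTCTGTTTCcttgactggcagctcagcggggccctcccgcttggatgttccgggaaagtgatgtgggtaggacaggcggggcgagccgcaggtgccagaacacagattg
BST2 and B2M held 2 overlapping matches each, LGALS3BP held 1, and CFB held 1 on the opposite strand. The motif was also present in ISG15, IFITM1, IFI6 and PARP9, of which none was higher by 2-fold.

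**Figure D4:**
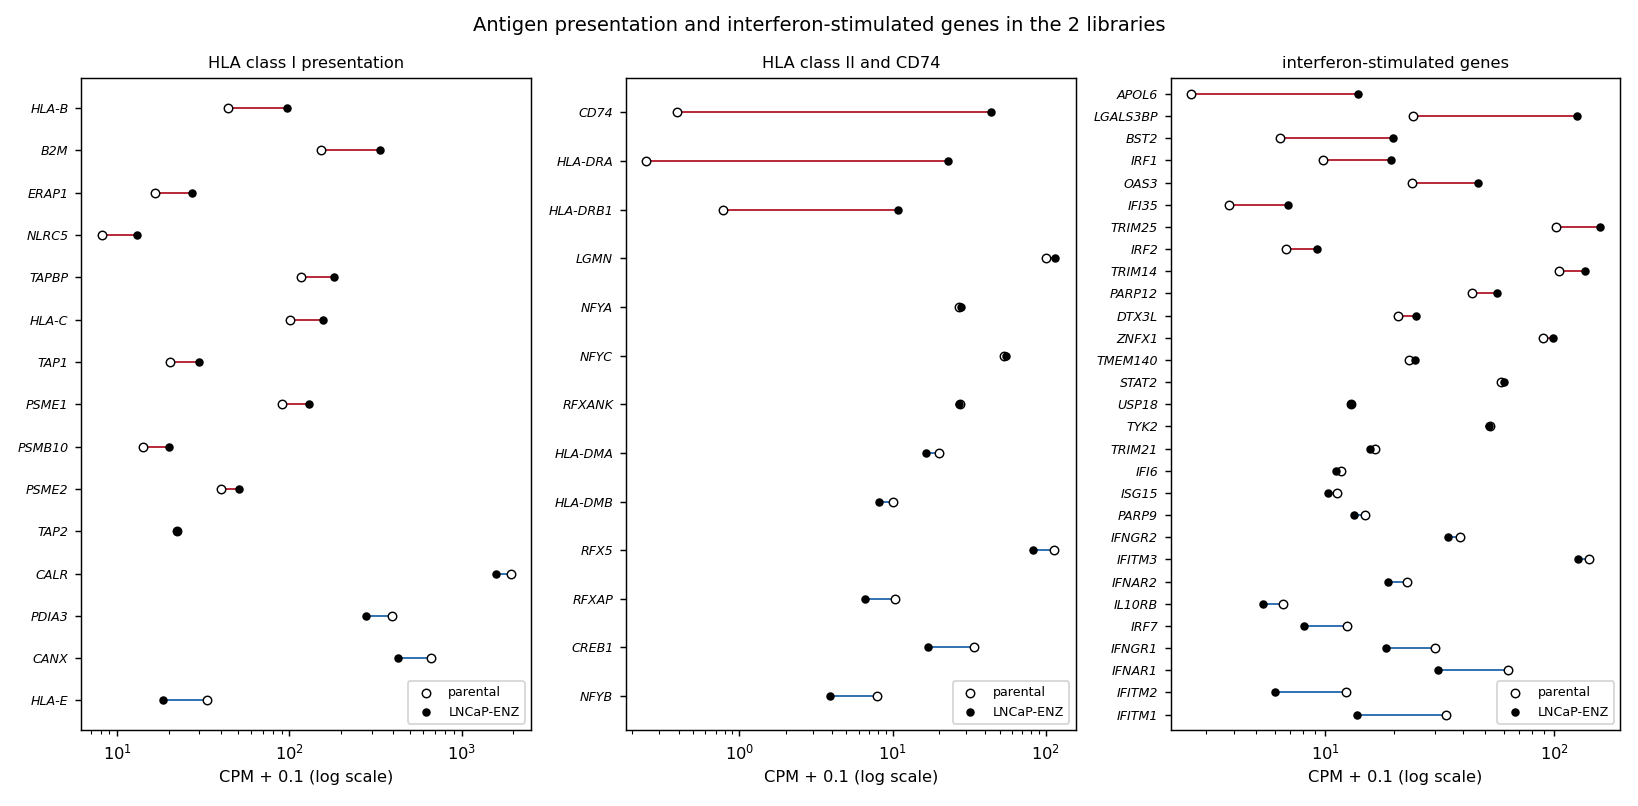
Level of HLA class I presentation genes (left), HLA class II genes with CD74 (middle) and interferon-stimulated genes (right) in parental cells (open circles) and LNCaP-ENZ cells (filled circles), as CPM + 0.1 on a log scale, with red lines for higher and blue lines for lower levels in LNCaP-ENZ cells and 1 library per arm. CD74, HLA-DRA and HLA-DRB1 stand out in the middle panel, where the other 10 genes have short lines.

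Inflammatory genes went both ways, with a median above that of all genes. Of 23 genes of the NF-kB and inflammatory list, 4 (17.4%) were higher and 3 (13.0%) lower, against 0.891% and 7.05% of all genes. After the adjustment 5 were higher and 1 lower. The median lay 0.57 above that of all genes (0.39 after adjustment and 0.18 at its lowest over all settings tried). Beside PIGR, the higher genes before the adjustment were CFB, IL32 and CCL2. CFB, complement factor B, had 3.66 and 16.3 CPM (log2 ratio 2.12). IL32, a proinflammatory cytokine, had 32.1 and 87.1 CPM (1.44), and CCL2, a monocyte chemokine, 15.7 and 37.9 CPM (1.26). C3, the central complement protein, had 3 and 60 counts (log2 ratio 3.80, 2.90 to 6.83). Other chemokines went the other way. CXCL8, interleukin 8, had 8.50 and 2.17 CPM (log2 ratio -1.92), and CCL20 29.6 and 14.3 CPM (-1.04). BIRC3, an NF-kB target that blocks cell death, was lower as well (11.5 and 4.35 CPM). NFKBIA, the feedback inhibitor of NF-kB, had 136 and 211 CPM (log2 ratio 0.63). Of 10 mucosal secretory and barrier genes, PIGR was higher and 0 were lower, and the median lay 0.03 above that of all genes, with an adjusted difference of -0.19. LCN2 and SLPI, secreted proteins of mucosal defence, had log2 ratios of 0.95 and 0.93, and MUC5AC and MUC20, mucin genes, -0.81 and -0.72.

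Cell cycle genes divided by phase. Of 60 G1/S and replication genes, 3 (5.00%, against 0.891% of all genes) were higher and 0 lower by at least 2-fold. After the adjustment 2 were higher and 0 lower. The median lay 0.52 above that of all genes (0.43 after adjustment), with 45 of 60 genes above the median of all genes. Of 74 G2/M and mitosis genes, 1 was higher and 20 (27.0%, against 7.05% of all genes) were lower. The adjusted counts were 0 higher and 11 lower. The median lay 0.36 below that of all genes (0.36 after adjustment), with 14 of 74 genes above the median of all genes. MCM5, a subunit of the replicative helicase, had 99.9 and 208 CPM (log2 ratio 1.06, 0.98 to 1.14), and ORC6, of the origin recognition complex, 7.08 and 15.9 CPM (1.15). MCM3 and MCM7 had log2 ratios of 0.84 and 0.76, and the epigenetic factor UHRF1 0.98. TTK, the kinase of the spindle checkpoint, was the lowest mitotic gene, with 27.1 and 4.51 CPM (log2 ratio -2.56, -2.94 to -2.25). CENPE and CENPF, kinetochore proteins, had 13.3 and 3.34 CPM and 50.3 and 13.9 CPM, and CKAP2, a spindle protein, had a log2 ratio of -1.93. Other mitotic genes did not follow. FOXM1, the transcription factor of the G2/M programme, had 245 and 271 CPM (log2 ratio 0.15), BIRC5 -0.02 and AURKB -0.06, and CDC25A, a phosphatase that acts at both transitions, was higher, with 20.7 and 45.5 CPM. Among G1/S genes, BRCA2 (-0.85) and BLM (-0.71) had the lowest log2 ratios. Of 27 described kinesin genes, motors of which many act in the spindle, 5 were lower and 0 higher, or 2 lower after the adjustment. The 5 were 18.5% of them, against 7.05% of all genes. The kinesin median lay 0.51 below that of all genes (0.35 after adjustment).

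Regulators of the cycle and of cell death stayed mostly within 2-fold, as did all genes, of which 7.94% passed the limit. Of 23 cyclins, CDK inhibitors and RB-family or E2F genes, 1 was lower, CDKN1C (10.6 and 4.35 CPM). RB1 had 38.6 and 22.1 CPM (log2 ratio -0.80), CDKN1B 56.8 and 33.9 CPM (-0.74) and CCND1 195 and 254 CPM (0.38), while MYC, one of the abundant transcription factors, had 854 and 889.8 CPM (0.06). Of 43 p53 targets and apoptosis genes, 4 (9.30%, against 7.05% of all genes) were lower and 0 higher, or 2 lower after the adjustment. These were RRM2B, a subunit of ribonucleotide reductase (23.9 and 8.08 CPM), BIRC2 (26.5 and 9.53 CPM), BIRC3 and CCNG1 (164 and 74.4 CPM). CDKN1A, a CDK inhibitor and p53 target, had 185 and 121 CPM (log2 ratio -0.61).

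Growth factor and kinase pathways showed single large differences rather than a shift of the lists. IGF1R, the receptor of insulin-like growth factors, was lower, with 138 and 29.5 CPM (log2 ratio -2.22, -2.36 to -2.09), whereas IGFBP3, which binds its ligands, was higher. IRS2, an adaptor of the same receptor, was lower (9.67 and 3.06 CPM), and so was FGFR4 (15.9 and 6.74 CPM). EGFR had 274 and 152 CPM (log2 ratio -0.85), and ERBB2 and ERBB3 had log2 ratios of -0.01 and -0.06. HBEGF, a ligand of EGFR, was higher (3.81 and 8.75 CPM), as was FGF13 (9.62 and 20.6 CPM). Of 34 genes of the PI3K, AKT and mTOR list, 6 (17.6%, against 7.05% of all genes) were lower and 0 higher, or 4 lower after the adjustment. Besides SESN3 and IRS2 these included FOXO1, the transcription factor that AKT holds in check (21.0 and 5.29 CPM), DEPTOR (15.8 and 7.02 CPM) and RICTOR (15.9 and 7.69 CPM). AKT1, AKT2 and MLST8 had log2 ratios of 0.13, -0.02 and 0.02. Of 27 JAK/STAT and SOCS genes, 6 (22.2%) were lower and 0 higher, or 2 lower after the adjustment, among them GHR, the growth hormone receptor (21.4 and 4.68 CPM), JAK3 (11.5 and 3.23 CPM), SOCS4 (32.3 and 13.9 CPM), and the cytokine receptor chains LIFR (35.2 and 15.9 CPM) and IL6ST (34.5 and 15.7 CPM). STAT3 (163 and 163 CPM) and STAT5B (65.9 and 66.3 CPM) had nearly the same level in both libraries. SOCS4 had an adjusted log2 ratio of -0.55.

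Early response genes separated into opposite groups. Of 31 early response and MAPK feedback genes, 3 (9.68%) were higher and 6 (19.4%) lower, against 0.891% and 7.05% of all genes. The counts were the same after the adjustment. The median lay 0.36 below that of all genes (0.21 after adjustment). DUSP5 was higher, as given above, with DUSP2, another phosphatase of MAP kinases (10.8 and 26.5 CPM), and EGR1, a zinc finger factor of the first response (14.7 and 44.1 CPM, log2 ratio 1.58). PHLDA1 was the lowest, with 20.2 and 4.12 CPM (log2 ratio -2.27). KLF4 (15.5 and 5.91 CPM), JUND (389 and 177 CPM), PER1 (54.3 and 24.9 CPM), ERRFI1 (30.1 and 14.5 CPM) and ATF3 (39.4 and 19.3 CPM) were lower too. FOS and JUNB had log2 ratios of 0.72 and 0.72, against -0.73 for JUN, so that AP-1 members were not moved alike.

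Genes of protein synthesis were higher by small amounts over many members. Of 78 cytosolic ribosomal protein genes, 0 passed 2-fold and 76 lay above the median of all genes, with a median 0.31 above it. After the adjustment the median lay 0.13 above. Their log2 ratios ran from -0.34 for RPL14 to 0.55 for RPS27. Of 52 translation and ribosome biogenesis genes, 4 (7.69%, against 0.891% of all genes) were higher and 1 lower, or 1 each after the adjustment. The median lay 0.39 above that of all genes (0.35 after adjustment). RRP12 (62.3 and 130.1 CPM), POLR1C, a subunit of RNA polymerases I and III (22.5 and 46.6 CPM), NOP16 (16.5 and 33.6 CPM) and CAD were higher, and EIF2S2, a subunit of initiation factor 2, was lower (26.6 and 11.4 CPM). The 73 mitochondrial ribosomal protein genes had a median 0.31 above that of all genes (0.17 after adjustment), and 0 passed 2-fold. For 13 mitochondrially encoded genes the median lay 0.48 above, with 1 past 2-fold, ATP8 (811 and 1784 CPM), which overlaps ATP6, and ND3 was the lowest (1090.1 and 689 CPM). The 75 nuclear genes of oxidative phosphorylation had a median 0.16 above, with NDUFA5 the only one past 2-fold (21.2 and 8.02 CPM). After the adjustment 0 of these genes passed 2-fold.

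Lipid genes were lower in part. Of 36 genes of fatty acid synthesis and lipid storage, 5 (13.9%, against 7.05% of all genes) were lower and 1 higher, and of 29 cholesterol genes 4 (13.8%) were lower and 0 higher. After the adjustment 3 and 2 genes were lower. ELOVL7, an elongase of long fatty acids, had 33.1 and 5.96 CPM (log2 ratio -2.45), and the acyl-CoA synthetases ACSL4, ACSL3 and ACSL1 had log2 ratios of -1.82, -1.31 and -1.02. FASN, the fatty acid synthase, had 1176 and 1079 CPM (log2 ratio -0.12), and SCD, the stearoyl desaturase, 1822 and 1015 CPM (-0.84). Among cholesterol genes, STARD4, a sterol carrier, had 33.9 and 12.2 CPM, HSD17B7 56.0 and 20.7 CPM, SOAT1, which esterifies cholesterol, 54.4 and 23.0 CPM, and INSIG1, which retains the SREBP complex, 239.9 and 105 CPM.

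In the secretory pathway, the shares of lower genes ranged from that of all genes to above it. Of 33 glycosylation genes, 6 (18.2%, against 7.05% of all genes) were lower and 0 higher, or 4 lower after the adjustment, and the median lay 0.25 below that of all genes, 0.03 below after the adjustment. GALNT7 (27.1 and 7.30 CPM), GCNT1 (23.9 and 8.58 CPM) and UAP1, with ST6GALNAC1 above, act in the O-glycan pathway or its sugar supply. Of 48 genes of the unfolded protein response and folding in the endoplasmic reticulum, 6 (12.5%) were lower and 0 higher, or 2 lower after the adjustment, and HSP90B1, DNAJC3 (58.5 and 23.5 CPM) and SEL1L (130.3 and 54.4 CPM) had the largest differences. After the adjustment DNAJC3 and SEL1L were within 2-fold. HSPA5, the main chaperone of this compartment, had 666 and 434 CPM (log2 ratio -0.62), while XBP1, a transcription factor of the response, had 151 and 209 CPM (0.47). Of 46 RAB GTPases, which direct vesicle traffic, 3 (6.52%) were lower and 0 higher, or 1 lower after the adjustment.

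Stress and nutrient genes differed singly. FTH1, the ferritin heavy chain and the most abundant of the NRF2 and metallothionein list, had 1616 and 3418 CPM (log2 ratio 1.08, 1.06 to 1.10), and NQO1, a quinone reductase, 39.3 and 102 CPM (1.38). The cystine transporter SLC7A11 (49.1 and 21.7 CPM) and the zinc transporter SLC39A10 (log2 ratio -1.53) were lower, but within 2-fold after the length and GC adjustment. HIF1A, the oxygen-regulated transcription factor, was lower, with 78.0 and 23.8 CPM (log2 ratio -1.70), and its antisense RNA HIF1A-AS2 had 20.2 and 5.24 CPM. The study does not say whether strand was used in counting, so reads of HIF1A and HIF1A-AS2 may have been exchanged. CA9, a carbonic anhydrase of hypoxic cells, was higher (10.2 and 21.2 CPM), and the other 46 of 49 hypoxia and glycolysis genes, TXNIP apart, stayed within 2-fold. Of 47 genes of the amino acid response, ATF5 was higher (11.6 and 26.7 CPM), and ATF3 and SLC7A11 were lower. AMD1, the enzyme that feeds polyamine synthesis, had 1024 and 523 CPM (log2 ratio -0.97), just inside the limit.

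Adhesion and matrix genes were divided. Of 31 genes of epithelial junctions and epithelial-mesenchymal transition, 6 (19.4%, against 7.05% of all genes) were lower and 0 higher, but after the length and GC adjustment 1 was lower and 1 higher. DSC2 and DSG2, cadherins of desmosomes, had 23.9 and 9.31 CPM and 155 and 62.1 CPM, CLDN12, a claudin, 115 and 47.3 CPM, and TJP1, the scaffold of tight junctions, 169 and 81.2 CPM. CDH1, the epithelial cadherin, had 720.1 and 564 CPM (log2 ratio -0.35), and VIM, vimentin, 68.1 and 52.3 CPM (-0.38). SNAI2, a repressor of epithelial genes below the level of description, had 73 and 1 counts (log2 ratio -4.56, -11.32 to -3.48). FN1, fibronectin, lay at the limit, with 554 and 1108 CPM. Of 37 matrix, integrin and TGF-beta genes, 4 (10.8%) were higher and 4 (10.8%) lower, against 0.891% and 7.05% of all genes. The adjusted counts were 4 higher and 3 lower. TNC, COL5A1, a fibrillar collagen (14.3 and 42.4 CPM), ITGA3 (18.7 and 41.3 CPM) and ID3, an inhibitor of helix-loop-helix factors that BMP signals induce (12.4 and 57.7 CPM), were higher. PMEPA1, LAMB3 (9.87 and 3.96 CPM), LTBP1 (43.8 and 20.3 CPM) and SKIL (31.5 and 15.1 CPM) were lower. PMEPA1 had 35.8 and 8.30 CPM.

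Genes of neurites, synapses and axon guidance also went both ways, with 4 of 50 higher and 8 lower and a median 0.01 above that of all genes. RIMS1, a scaffold of the presynaptic active zone, had 18.9 and 68.4 CPM (log2 ratio 1.85), BDNF, a neurotrophin, 2.25 and 8.30 CPM (1.84), EFNB2, an ephrin, 6.30 and 19.3 CPM (1.60), and SEMA3C 46.3 and 104 CPM (1.17). MAP1B, RAB3B, TUBB3, a neuronal tubulin (17.6 and 3.84 CPM), and CACNA2D1, a calcium channel subunit (26.0 and 5.96 CPM), were lower. MAP2, the dendritic microtubule protein, had 186 and 16 counts, below the level of description. In the Notch and Wnt list, 1 of 34 genes (2.94%) was higher (BAMBI) and 4 (11.8%) were lower, with the same counts after the adjustment. The 4 were the receptors LGR4 (30.3 and 10.8 CPM) and FZD5 (25.9 and 9.97 CPM), the Notch ligand JAG1 (27.2 and 10.8 CPM) and HES6.

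Chromatin genes differed little. Of 87 chromatin modifiers, 5 (5.75%, against 7.05% of all genes) were lower and 0 higher, or 1 lower and 1 higher after the adjustment. The lower genes were led by KDM7A, a histone demethylase (27.8 and 7.91 CPM, log2 ratio -1.80), followed by CHD1 (23.6 and 10.3 CPM) and REST, the repressor of neuronal genes (45.0 and 21.1 CPM). The adjusted log2 ratios of CHD1 and REST were -0.53 and -0.43, within 2-fold. Of 38 histone genes, 0 passed 2-fold. Of 17 drug efflux and xenobiotic genes, 3 (17.6%, against 7.05% of all genes) were lower (1 after the adjustment) and 0 higher. The 3 were ALDH1A3 (21.4 and 3.73 CPM), ABCC4 and UGT8 (21.0 and 9.03 CPM). The noncoding LOC101927751, which overlaps ALDH1A3, had 11.5 and 1.17 CPM.

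**Figure D5:**
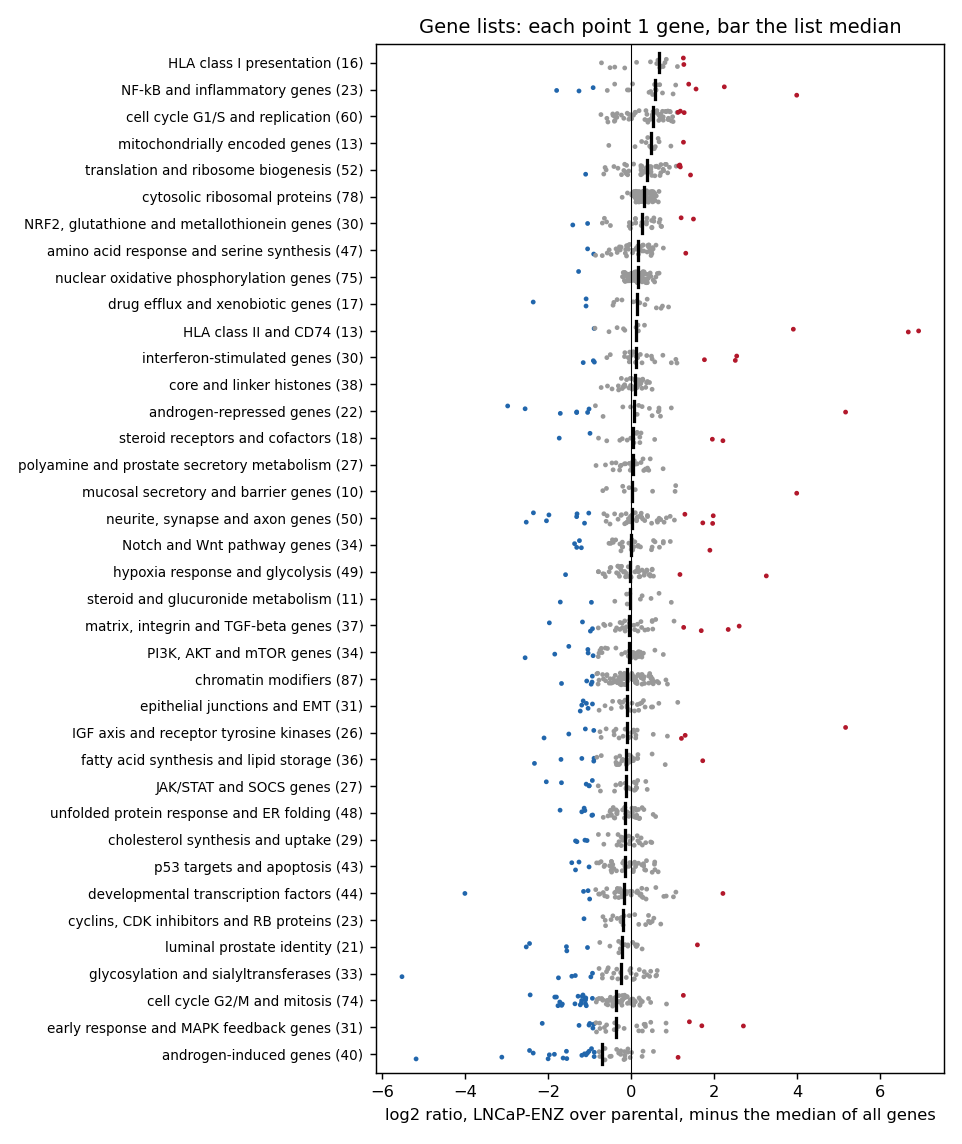
Log2 ratio of LNCaP-ENZ over parental cells minus the median of all genes (x axis) for the gene lists with at least 10 described genes, each point 1 gene and each bar the median of its list, with the number of genes in brackets and red and blue points for genes at least 2-fold higher and lower. The highest medians are those of HLA class I presentation (0.67), NF-kB and inflammatory genes (0.57) and G1/S genes (0.52), and the lowest is that of androgen-induced genes (-0.69).

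Differences were spread over the genome, with lower genes more frequent on some chromosomes. On chromosome 13, 30 of 179 genes (16.8%) were lower, and the median lay 0.36 below that of all genes, or 0.13 below after the length and GC adjustment. On chromosome 18, 21 of 161 genes (13.0%) were lower, with a median 0.25 below, or 0.05 below after adjustment. Chromosomes 17, 19 and 22 had medians 0.13, 0.12 and 0.11 above, and the mitochondrial genome 0.47 above. After adjustment no chromosome lay 0.2 or more from all genes, with 4 of the 14 mitochondrial genes having a GC value. Among 9974 runs of 10 neighbouring protein-coding genes, of which 1% had medians under -0.80 and 1% over 0.46 relative to all genes, the lowest lay on chromosome 12 from 74931551 to 80329235, from ATXN7L3B to PPP1R12A, with a median 1.21 below that of all genes. It held PHLDA1, NAP1L1 and OSBPL8, a lipid transfer protein with 120.3 and 21.5 CPM (log2 ratio -2.48). A run on chromosome 13 from 77579389 to 96447243 held 10 genes that all lay below the median of all genes, ABCC4 and DNAJC3 among them. Runs of zinc finger genes on chromosome 19, from 52567719 to 53360902 and from 19740282 to 24312770, had medians 1.04 and 1.00 below, with ZNF480 (214 and 53 counts) and ZNF91 (429 and 125 counts) the lowest of each. Over the whole genome, 36 of 291 described zinc finger genes (12.4%, against 7.05% of all genes) were lower and 1 higher. After the adjustment 14 were lower and 1 higher. The zinc finger median lay 0.16 below that of all genes, or 0.04 below after adjustment. The highest run, on chromosome 22 from 35796116 to 36903148, held MCM5 and the neighbouring apolipoprotein L genes APOL6, APOL3 and APOL2 and had a median 0.77 above. APOL3 had 66 and 153 counts (log2 ratio 1.38) and APOL2 200 and 275 counts (0.64).

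Noncoding genes, like coding genes, were more often lower than higher. Of 10202 protein-coding genes, 90 were higher and 742 lower, and of 313 genes typed as lncRNA, 3 were higher and 18 lower. The small nucleolar RNA host genes stood higher, with 12 of 13 above the median of all genes and a median 0.43 above it (0.23 after adjustment). The pseudogene RPL9P8 had 82 and 394 counts (log2 ratio 2.43), but its reads cannot be separated with certainty from those of RPL9. LOC101448202 (8.75 and 23.1 CPM) and HMGN2P46 (6.16 and 14.3 CPM) were higher too, and CSPG4P11 was lower (8.35 and 1.78 CPM). RMRP and RPPH1, the RNAs of RNase MRP and RNase P, had log2 ratios of 0.41 and -0.13.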

How the data were processed

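RNA of parental LNCaP and LNCaP-ENZ cells was sequenced by the authors with 1 library per arm by the labels. The authors deposited 1 table with a raw read count and a TPM value per gene and library, with GRCh37 positions. According to the study's methods, reads were aligned with HISAT2 and quantified with StringTie. The submitters' processing notes also name STAR, and the use of strand is not given in the sources used here. From the counts, CPM was computed by library total, genes averaging 5 CPM or more were kept, and log2 ratios were taken with a pseudocount of 0.1. A gene was called at 2-fold. Intervals are exact 95% Clopper-Pearson intervals, and a count of 3 was taken as the floor. No test between arms was possible. Alternatives were the pseudocount, the filter, TMM (edgeR 4.0.16, R 4.3.3), centring, leaving out the 10 most counted genes, and the TPM values. An adjustment for length and GC content (genes in the same quintile of each) was added after seeing the data. Python 3.11.15, pandas 2.3.3, numpy 2.4.6 and scipy 1.17.1 were used, and the calculations were tested on simulated data. Gene lists were written from general knowledge of the pathways, and the genes and lists were chosen with earlier results of these data known. Named genes were TMPRSS2, IGFBP3, PIGR and CD74, the 15 largest log2 ratios in each direction among protein-coding genes, the 5 largest among other types, the 10 largest among genes averaging 100 CPM or more, up to 3 in each direction per list past 2-fold, and genes with 3 counts or fewer in 1 library. Any other gene was picked for its role after its values were seen. Promoter sequences were taken from RefSeq (GRCh38.p14) and GC content from GENCODE transcript sequences lifted to GRCh37. Both were matched by gene symbol, and no coordinates were carried between builds here. Some genes of the lists are not reported here by name and not drawn in the plots of single genes, though they count in the totals. Libraries of other cells and assays of the series were not used here.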

Additional observations from a re-analysis of the deposited data

How the results depend on the processing

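No paired analysis was possible because each arm has 1 library, and no library could be left out. Of the settings tried, none reversed the direction of a called gene among the genes named by the rules above. The other called genes were not checked for this. Keeping genes that averaged 1 CPM or more gave 271 higher and 1413 lower genes, and with no filter 2090 and 4030, where many genes rest on few reads. TMM gave 156 higher and 500 lower genes. A pseudocount of 1 gave 90 and 647, and TPM 81 and 924. The length and GC adjustment, chosen after seeing the data, gave 414 lower genes, left 1 gene list instead of 4 with a median at least 0.5 from that of all genes (androgen-induced genes), and left 0 chromosomes instead of 3 at least 0.2 away, with a GC value for 4 of the 14 mitochondrial genes. Over all settings the list medians ran from -0.73 to -0.57 for androgen-induced genes, 0.49 to 0.72 for HLA class I presentation, 0.43 to 0.58 for G1/S genes and -0.36 to -0.28 for G2/M genes. Medians close to that of all genes changed sign under at least 1 setting. Among them were those of the HLA class II, androgen-repressed, histone, matrix, mucosal, neurite, polyamine, and Notch and Wnt lists. The median of the basal list, with 5 described genes, lay 0.38 below that of all genes and 0.02 above it at its highest. Depth limits statements on genes with few counts, since 3 counts are 0.147 CPM in parental and 0.167 CPM in LNCaP-ENZ cells.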
